A study of Drosophila melanogaster with 6 samples.

Results

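The genes described here make up the circadian clock of Drosophila melanogaster: per, tim, Clk, cyc, vri, Pdp1, cwo, cry, dco and sgg. Members were found by symbol, as every probe set (the group of oligonucleotides that reads 1 transcript on an Affymetrix array) that the platform annotation assigns to a single gene with a listed symbol. Of the 10 listed genes, 9 had such a probe set, out of 10844 genes in the whole series, and together they had 12 probe sets. The remaining gene, sgg, which encodes the GSK3 kinase that phosphorylates TIM, had none and has no value here. The study measured total RNA from the brain on 6 arrays, all from grown females of the wild-type strain CantonS. Control brains, which received no treatment, were measured on 3 arrays (control 1, 2 and 3). Brains lacking mushroom bodies, the paired olfactory memory centres built by Kenyon cells, were measured on 3 arrays (ablated 4, 5 and 6). For the ablation, larvae just out of the egg ate yeast with hydroxyurea, a blocker of DNA synthesis, at 25 mg/ml for 4 h, and both groups were reared at 25 °C. The comparison asks which brain transcripts differ once the mushroom bodies are gone, and since each ablated array comes from drug-fed animals, effects of the drug elsewhere cannot be told apart from the ablation. The labels give neither the hour of dissection nor the light regime, and they do not say how many brains an array holds.

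In the fly clock, the CLK and CYC proteins form a pair of basic helix-loop-helix factors that switch on per and tim, and the PER and TIM proteins return to the nucleus and shut CLK and CYC off. The same pair drives vri, Pdp1 and cwo, whose products close further loops: VRI represses and PDP1 activates Clk, and CWO competes for the DNA sites of CLK and CYC. The kinase DCO (doubletime) phosphorylates PER and marks it for degradation, and CRY, a blue-light receptor, triggers the loss of TIM in light. Transcripts of per, tim, vri and Pdp1 are known to peak around dusk and early night in fly heads, and those of Clk and cry near dawn, while cyc and dco hardly cycle. Transcripts of per and tim occur in a small set of clock neurons, in glia and in photoreceptors, and Kenyon cells are not counted among the clock neurons.

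Intensities are given after each array was multiplied by 1 factor (between 0.855 for control 1 and 1.13 for ablated 5) that brings the arrays to a common mean after trimming 2% of probe sets at each end. Median deposited signal ranged from 14.2 to 17.6 on control and from 13.0 to 14.8 on ablated arrays, and for arrays it is their number that limits the precision. Probe sets whose mean reached 9.2 were tested (8380 in all), and differences are on the scale of log2(intensity + 2.7), which understates those of dim genes. The Kenyon cell gene ey, a Pax6 factor of mushroom body development, read 229, 188 and 203 on control and 113, 111 and 121 on ablated arrays. All 7 measured Kenyon cell markers of 11 listed had differences below 0 on their brightest tested probe set (a dimmer one of dnc stood at 0.38), beside 4409 of all 8380. Their summed intensity ran from 2804 to 3365 in control and from 2635 to 2926 in ablated brains, with overlap. Most of that sum was rut, with means of 2215 in control and 2157 in ablated brains (log2 difference -0.036). Marker sums overlapped between the groups for neurons (1548 to 1894 and 1577 to 1891, 6 of 9 genes measured) and glia (2723 to 2851 and 2475 to 3044, 8 of 9). Those of clock neurons (Pdf, Pdfr, ITP, NPF, Dh31 and gl, 6 of 6) did not overlap, at 988 to 1026 in control and 821 to 967 in ablated brains. Among these genes, ITP (log2 difference -0.42) was lower without overlap and Pdfr (0.46) was higher without overlap, beside 6.38% lower and 4.64% higher of all tested probe sets. Pdf (-0.22), NPF (-0.013) and Dh31 (-0.23) overlapped, and gl was too dim to test. The sum, like tim, cyc, vri and cwo below, was lower on all 3 ablated arrays, with a narrow gap between 967 and 988. It was lowest on ablated 4, as was vri, while cyc and cwo were lowest on ablated 5 and tim (142154_at) on ablated 6. The part of this sum in the differences of those genes was not tested. Tissues outside the brain were also present. Photoreceptor markers (6 of 13) summed to between 124 and 1526 in control and 430 and 1433 in ablated brains, muscle markers (6 of 10) to 77.6 to 640.3 and 225 to 1288, and fat body markers (7 of 7) to 11222 to 21861 and 15774 to 22233. Summed markers of the olfactory appendages (7 of 8) did not overlap, at 57.5 to 68.3 in control and 152 to 1614 in ablated brains, the highest on ablated 5. Gene by gene, only Obp56d and Obp19d were higher without overlap, as were 4.64% of all tested probe sets. They gave 81.2 and 56.5 of the 152 on ablated 4. Os-C, lush and Obp28a read at most 3.57 on any control array, and on ablated 4 they lay within their control ranges (0.95, 0.528 and 1.9). The part of these tissues in the differences below was not tested. The ratio of 3′ to 5′ signal for Gapdh, a sign of RNA integrity, was 7.18 to 13.0 in control and 7.12 to 10.5 in ablated brains. For actin it was higher, at 13.0 to 19.4 in control and 12.5 to 17.2 in ablated brains. The 3′ probe sets of both read far brighter than the 5′ probe sets on every array.

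No clock gene passed the test across all probe sets, yet the tested clock genes did not all lie to the same side. Among the 9 tested member probe sets, which cover 8 genes, tim, cyc, vri and cwo each had a probe set that read lower on every ablated array than on every control array, and per read higher on every ablated array. Over all tested probe sets, such separation was found for 6.38% on the lower side and 4.64% on the higher side, against 4 and 1 of 9 here. The remaining 4 overlapped. With limma adjusted over all probe sets, 0 of 9 were called, as were 0% of all tested probe sets in either direction, where the lowest adjusted p was 0.758. At an unadjusted p below 0.05 limma listed 1 lower member (cwo) and 1 higher member (per), beside 2.51% lower (210) and 2.35% higher (197) of all. Differences were below 0 for 7 of the 9 and above 0 for 2, beside 4409 below 0 of all 8380 tested probe sets. The median over all tested probe sets was -0.018. Both tested tim probe sets are among the 7, so these do not stand for 7 genes. The tim probe set 151485_s_at passed the level for testing through its control arrays (mean 14, against 6.35 in ablated brains).

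**Figure D1:**
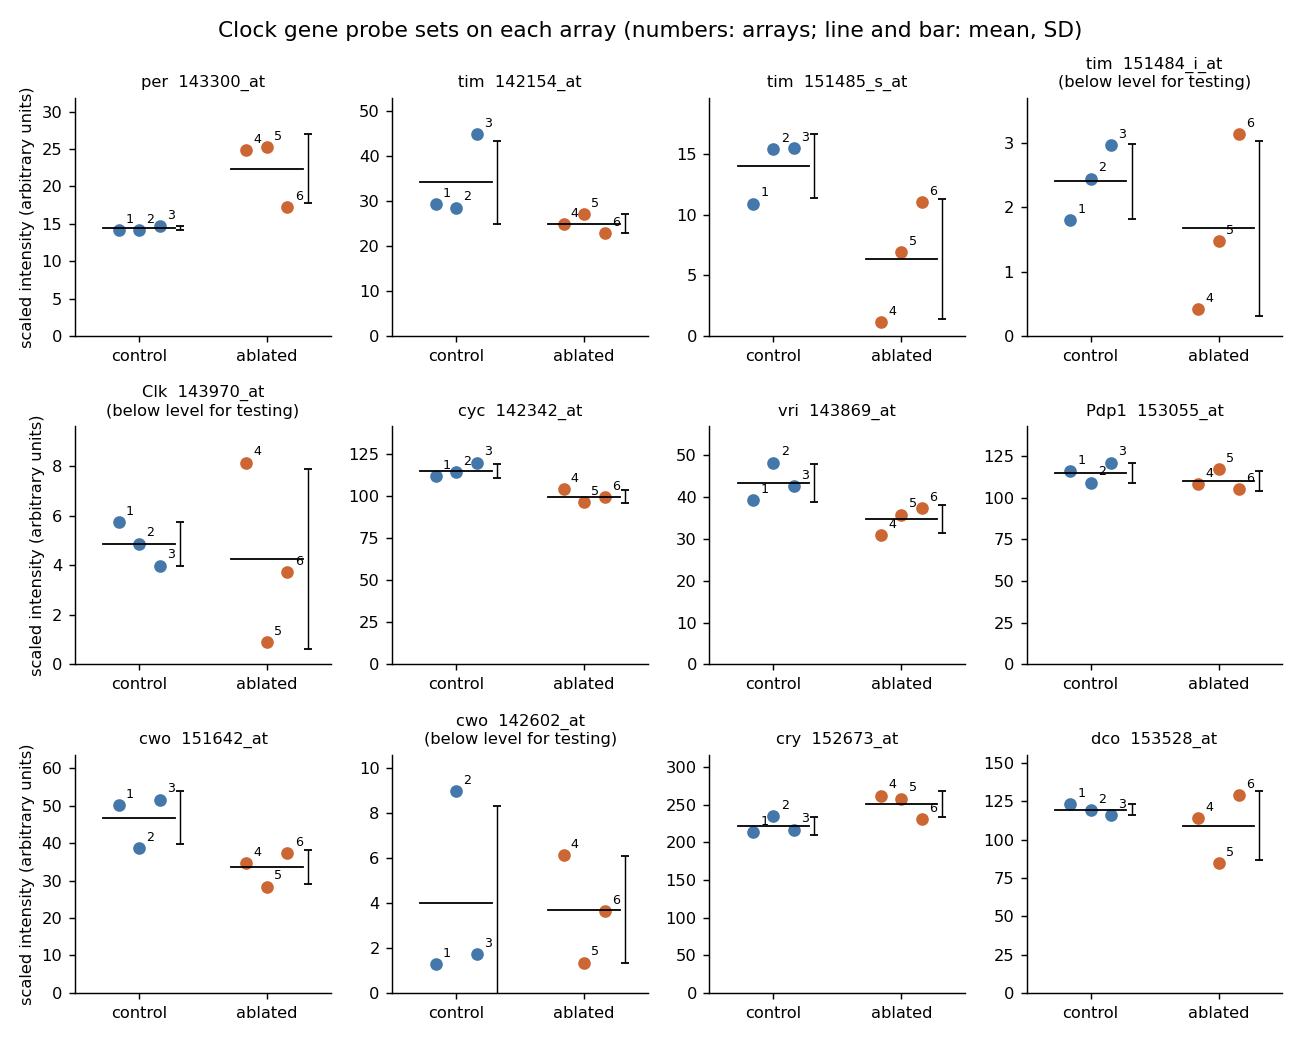
Scaled intensity (arbitrary units, axis from 0) of the 12 clock gene probe sets on each array, with control arrays in blue and ablated arrays in orange. Digits name the arrays, horizontal lines are group means and bars are 1 SD (n = 3, a bar that would pass 0 ends at the axis); tim 142154_at, cyc, vri and cwo 151642_at lie lower on every ablated array and per lies higher.

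The negative limb of the clock, per and tim, lay in opposite directions. The per transcript (probe set 143300_at) read 14.2, 14.2 and 14.7 in the control group (arrays 1, 2 and 3, the order used throughout). It read 24.9, 25.3 and 17.2 in the ablated group (arrays 4, 5 and 6). The control arrays were nearly level, and the ablated arrays were all above them, with ablated 6 closest. Control brains averaged 14.4 ± 0.284 (SD, n = 3) against 22.4 ± 4.59 (SD, n = 3) after ablation. The log2 difference was 0.54 (SE 0.22, 95% interval 0.034 to 1.05), a 1.45-fold difference, with limma's adjusted p = 0.839 over all probe sets. It was 0.45 without ablated 5, the array richest in olfactory appendage, muscle and fat body markers. Leaving out an array cannot make separated groups overlap. Olfactory appendage markers on ablated 4 and 6 (152 and 170.4) also stood above those of every control array, and their part in the per difference was not tested.

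The transcript of tim, the partner that PER needs to accumulate and enter the nucleus, was read by 3 probe sets. On the brightest (142154_at) it measured 29.2, 28.5 and 44.8 in control brains, against 24.8, 27.0 and 22.8 after ablation. Every ablated array was below every control array, by a small gap, and control 3 stood well above the rest. The log2 difference was -0.39 (SE 0.21, 95% interval -0.87 to 0.085, adjusted p = 0.839 by limma), and without control 3 it was only -0.20. A second probe set (151485_s_at) measured 10.9, 15.4 and 15.5 in control and 1.16, 6.89 and 11.0 in ablated brains. Control 1 and ablated 6 were almost equal there, so the groups overlapped, and ablated 4 was far the lowest. Its log2 difference was -1.05 (SE 0.49, 95% interval -2.16 to 0.063, adjusted p = 0.839 by limma), and -0.53 without ablated 4. This probe set passed the level for testing with a mean of 10.2, through its control arrays (mean 14.0, against 6.35 in ablated brains), so its size adds little to the first. The third (151484_i_at) spanned 0.422 to 3.13 over the 6 arrays and was too dim to test.

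The activators Clk and cyc differed in how well they were measured. The single Clk probe set (143970_at) had a mean of 4.56, below the level for testing. It read 5.73, 4.87 and 3.98 on control and 8.13, 0.903 and 3.73 on ablated arrays, so ablated 4 was the highest and ablated 5 the lowest of the 6, and no difference is given. The partner gene cyc (142342_at), a BMAL1 homologue, read 112, 114 and 119.8 on control and 104, 96.4 and 99.2 on ablated arrays. The ablated arrays were all lower, and replicates varied little, with means of 115 ± 4.01 (SD, n = 3) and 99.7 ± 3.65 (SD, n = 3). The log2 difference was -0.20 (SE 0.13, 95% interval -0.50 to 0.088, adjusted p = 0.839 by limma), a 1.15-fold difference.

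Among the targets that close the outer loops, vri and cwo read lower after ablation while Pdp1 stood close to control. The repressor gene vri (143869_at) measured 39.2, 48.1 and 42.6 on control and 30.8, 35.7 and 37.2 on ablated arrays, so that its groups did not overlap. Ablated 4 was the lowest and control 2 the highest. Its log2 difference was -0.30 (SE 0.16, 95% interval -0.68 to 0.070, adjusted p = 0.839 by limma), a 1.23-fold difference. The gene cwo, whose product is a transcriptional repressor of the Orange family, had a bright probe set (151642_at) at 50.2, 38.7 and 51.6 on control and 34.6, 28.4 and 37.3 on ablated arrays. Control 2 came close to ablated 6, and the groups were just apart. The log2 difference was -0.45 (SE 0.18, 95% interval -0.87 to -0.035, adjusted p = 0.839 by limma), or 1.37-fold, and -0.29 with control 1 and ablated 5 both left out. The other cwo probe set (142602_at) read between 1.28 and 8.97 and was not tested. The activator gene Pdp1 (153055_at) measured 116, 109 and 121 on control and 108, 117 and 105 on ablated arrays. The groups were interleaved, and the log2 difference of -0.068 (SE 0.13) had a 95% interval from -0.37 to 0.23 (adjusted p = 0.934 by limma).

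The light receptor gene cry (152673_at) read 214, 235 and 217 on control and 262, 258 and 231 on ablated arrays. Ablated 4 and 5 were above all control arrays, and ablated 6 lay just under control 2. Its log2 difference was 0.17 (SE 0.12, 95% interval -0.11 to 0.45, adjusted p = 0.847 by limma). In the deposited intensities without scaling it was 0.0075, so the size of the difference rests on the scaling. The PER kinase gene dco (153528_at) read 123, 119 and 116 on control and 114, 84.5 and 129 on ablated arrays. The ablated arrays spread on both sides of control, with ablated 5 the lowest of the 6. The log2 difference was -0.15 (SE 0.17, 95% interval -0.54 to 0.24, adjusted p = 0.893 by limma), and 0.020 without ablated 5.

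**Figure D2:**
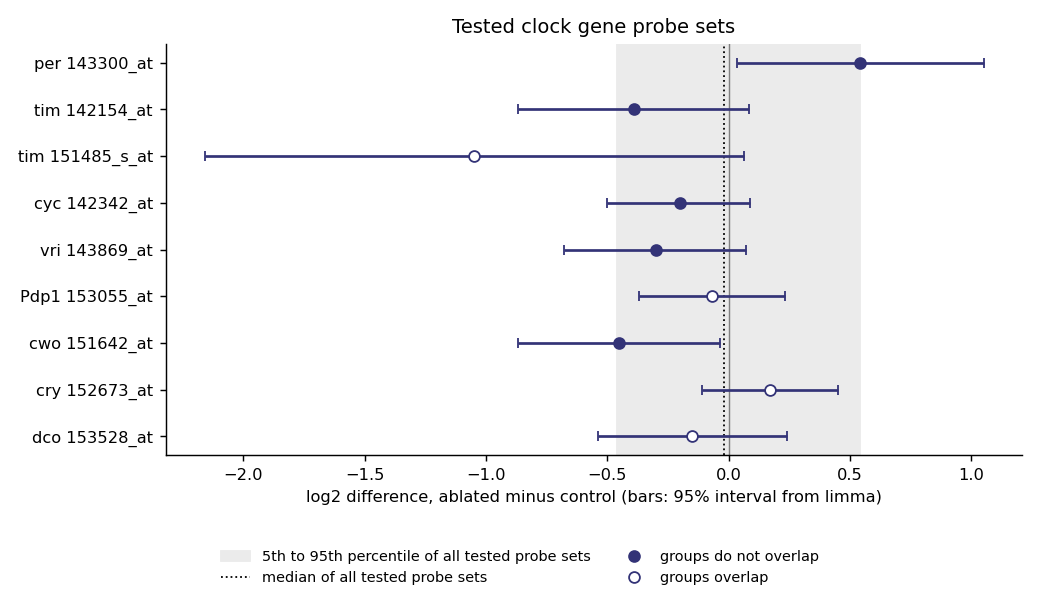
Log2 difference between ablated and control brains for the 9 tested clock gene probe sets, with 95% intervals from limma. Filled points mark groups that do not overlap, the grey band spans the 5th to 95th percentile of all tested probe sets and the dotted line their median of -0.018. The filled point of per lies at 0.54 and those of tim, cyc, vri and cwo between -0.20 and -0.45. The tim probe set 151485_s_at, whose groups overlap, lies at -1.05.

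A difference of 2 genes on the same array hardly moves with the overall brightness of that array, although its level has no meaning by itself, since probe sets differ in brightness. The log2 value of per minus that of tim (142154_at) was -0.91, -0.88 and -1.45 on control and 0.0055, -0.085 and -0.36 on ablated arrays. Its mean of -1.08 ± 0.32 (SD, n = 3) in control compares with -0.15 ± 0.19 (SD, n = 3) after ablation, a gap of 0.93. The values of per minus cwo were -1.65, -1.29 and -1.64 on control and -0.43, -0.15 and -1.01 on ablated arrays, a gap of 0.99. For per minus vri the gap was 0.84, for per minus cyc 0.75, for per minus dco 0.69, for per minus Pdp1 0.61 and for per minus cry 0.37. In all 7 the ablated arrays were above the control arrays with no overlap, and ablated 6 was the closest to control in each. These 7 share the per values, and per was taken as their common term after its values were seen. Set against every other tested probe set in place of a clock gene, per minus that probe set was separated upward for 45.2% and downward for 0.155%, so separation from per was common across the array and no p is given.

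**Figure D3:**
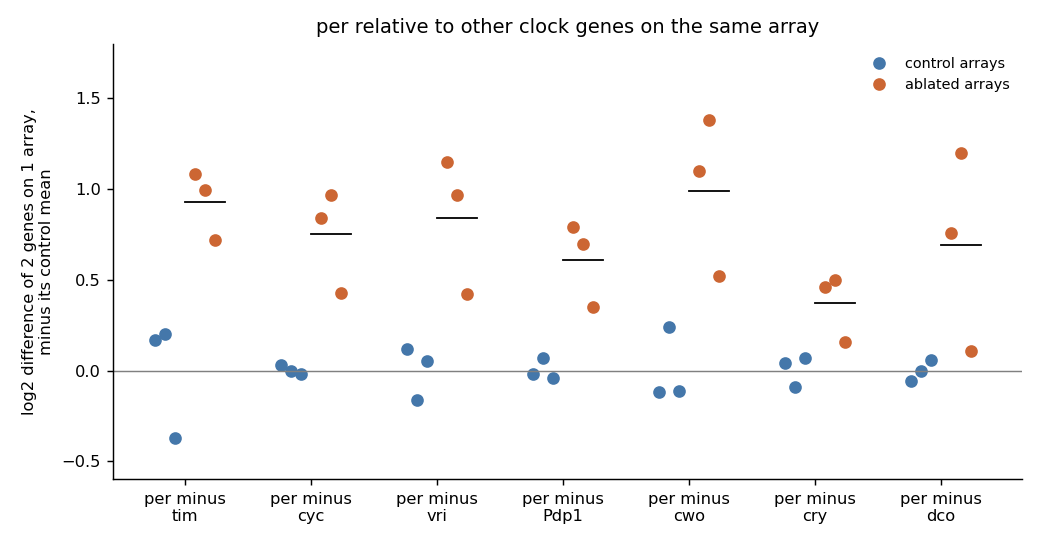
Log2 difference between per and 7 other clock genes on the same array, each minus its mean over the control arrays (vertical axis), with control arrays in blue, ablated arrays in orange and lines at the ablated means. Ablated arrays 4, 5 and 6 stand from left to right in each group, and the gaps run from 0.37 (cry) to 0.99 (cwo).

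A contrast of clock phases was also formed on each array, as the mean log2 value of per and tim minus that of cry, which is known to peak in the opposite phase. Clk, the other gene meant for its second term, was too dim. The contrast was -3.22, -3.37 and -2.93 on control and -3.26, -3.18 and -3.38 on ablated arrays. The groups were interleaved and their means differed by -0.098, less than the SD of 0.23 among control arrays, with per and tim on opposite sides. With the mean over all tested probe sets of each gene, which adds the second tim probe set, they differed by -0.26. The SD above belongs to the first form of the contrast only. Without the level for testing, Clk enters and the gap was 0.12. Genes whose array pattern came closest to that of tim (142154_at), by the root mean square difference of log2 values around their means over 6 arrays, were cert (152129_at) at 0.057, Dronc (141423_at) at 0.088 and CG17544 (141646_at) at 0.093. Like tim, all 3 read highest on control 3, with cert at 35.1, 31.6 and 47.8 on control and 29.5, 30.8 and 27.2 on ablated arrays.

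The wider clock pathway was described with 7 lists, each gene represented by its brightest tested probe set. Of 48 tested genes, limma called 0 lower and 0 higher over all probe sets (against 0% of all). At an unadjusted p below 0.05 it listed 2 lower (pAbp and ITP) and 1 higher (lark), beside 2.51% and 2.35% of all probe sets. Groups did not overlap for 3 lower and 4 higher genes, beside 6.38% and 4.64% of all probe sets. Every list had members on both sides of 0. Of the genes that phosphorylate or degrade clock proteins, 9 of 13 were tested, 3 below and 6 above 0, with a median of 0.017 (-0.15 in the deposited intensities). The F-box gene slmb (153633_at), which directs PER to degradation, read 24.4, 22.0 and 19.5 on control and 25.2, 30.0 and 30.3 on ablated arrays, a log2 difference of 0.34 (SE 0.18). The phosphatase subunit gene wdb (154680_at) stood at -0.43 (SE 0.26), also without overlap. Of the co-regulators of CLK and CYC, 5 of 6 were tested with a median near 0 (-5e-04), and those with the smallest p were the nuclear receptor gene Hr51 (147244_at) at -0.44 (SE 0.28) and ctrip (153383_at), a ubiquitin ligase that limits CLK, at -0.079. Their groups overlapped.

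Of 4 genes that act on the translation of clock messages, 3 were tested. The poly(A)-binding protein gene pAbp (151215_at) measured 812, 562 and 690 on control and 419, 422 and 469 on ablated arrays, a log2 difference of -0.64 (SE 0.15, adjusted p = 0.839 by limma), but its other probe set stood at 0.15. The gene lark (154925_at), whose product binds RNA, measured 109, 92.3 and 67.9 on control and 116, 114 and 129 on ablated arrays, at 0.43 (SE 0.18, adjusted p = 0.839 by limma). The lark values were higher on every ablated array than on every control array, a separation found for 4.64% of all tested probe sets. Of the light and temperature input genes only 2 of 10 were tested, the heat-sensing channel gene TrpA1 (148430_at) at 0.79 (SE 0.50) and nocte (144803_at), which serves temperature entrainment, at -0.25 (SE 0.29). Both overlapped, and TrpA1 read 4.97 on control 2 against 27.5 to 36.9 on the other 5 arrays.

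Clock neuropeptides and their receptors had 15 of 16 genes tested, 9 below and 6 above 0, with a median of -0.14 (0.0070 without ablated 5). Pdf (143977_at), the peptide of the ventral lateral clock neurons, was named outside the rule for its role, with its values seen. It read 276, 355 and 310.4 on control and 193, 321 and 311 on ablated arrays. Only ablated 4 was low, the groups overlapped, and the log2 difference was -0.22 (SE 0.20). Its receptor gene Pdfr (144406_at) read 15.2, 11.4 and 12.7 on control and 18.2, 22.2 and 16.5 on ablated arrays, at 0.46 (SE 0.23, adjusted p = 0.839 by limma) with no overlap. The ion transport peptide gene ITP (141624_at), expressed in a few clock neurons among others, read 163, 167 and 177 on control and 119, 101 and 163 on ablated arrays, at -0.42 (SE 0.18, adjusted p = 0.839 by limma). Ablated 6 and control 1 were almost the same. In bulk tissue, the number of cells that carry a transcript and its RNA per cell cannot be told apart, for these peptides as for the clock genes.

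Channels that set the firing of clock neurons had 9 of 10 genes tested, 7 below and 2 above 0, with a median of -0.093. The sodium leak channel gene na (145060_at) stood at -0.50 (SE 0.38) and its partner unc80 (150745_at) at -0.30 (SE 0.26), both with overlap. Genes of rhythmic output and clock cell development had 5 of 8 tested and a median of -0.15 (0.17 without control 1), with Fmr1 (144251_at), the fragile X gene, at -0.44 (SE 0.21) and the ubiquitin protease gene Usp8 (141593_at) at -0.34 (SE 0.16). In these lists, as among the clock genes, limma's adjusted p was at least 0.839.

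**Figure D4:**
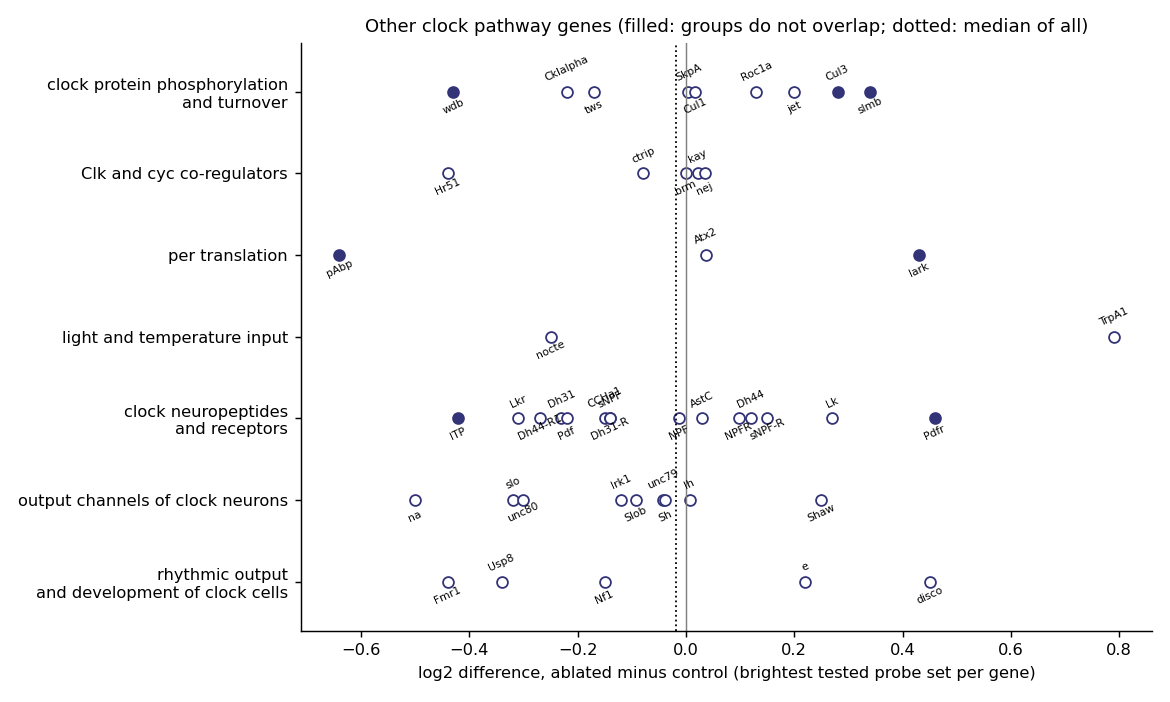
Log2 difference between ablated and control brains (horizontal axis) for each tested gene of the 7 lists of clock pathway genes (rows). Filled points mark groups that do not overlap and the dotted line is the median of all tested probe sets; pAbp lies at -0.64, lark at 0.43 and Pdfr at 0.46.

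With ablated 5 left out, the log2 differences were -0.45 for tim (142154_at), -0.18 for cyc, -0.33 for vri and -0.35 for cwo. Groups that do not overlap stay apart when an array is left out, so only the size of each difference can change here. The shares of all tested probe sets without overlap were 10.1% lower and 9.13% higher in that setting. The differences were then recomputed under other scalings of the arrays. In the deposited intensities the median of all tested probe sets was -0.17, and 14.8% of them were lower and 1.26% higher without overlap. There, 6 member probe sets were lower and 1 (per) was higher without overlap. With medians centred the shares over all probe sets were 8.79% and 3.07%, with quantile normalization 6.42% and 4.36%, and with cyclic loess 5.39% each. In each of these 3 scalings 4 member probe sets were lower without overlap, and tim (142154_at), cyc, vri, cwo (151642_at) and per were separated in all 4 scalings. The deposited values moved cyc to -0.37, vri to -0.46, Pdp1 to -0.23 and dco to -0.31, about as far as the median of all probe sets.

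**Figure D5:**
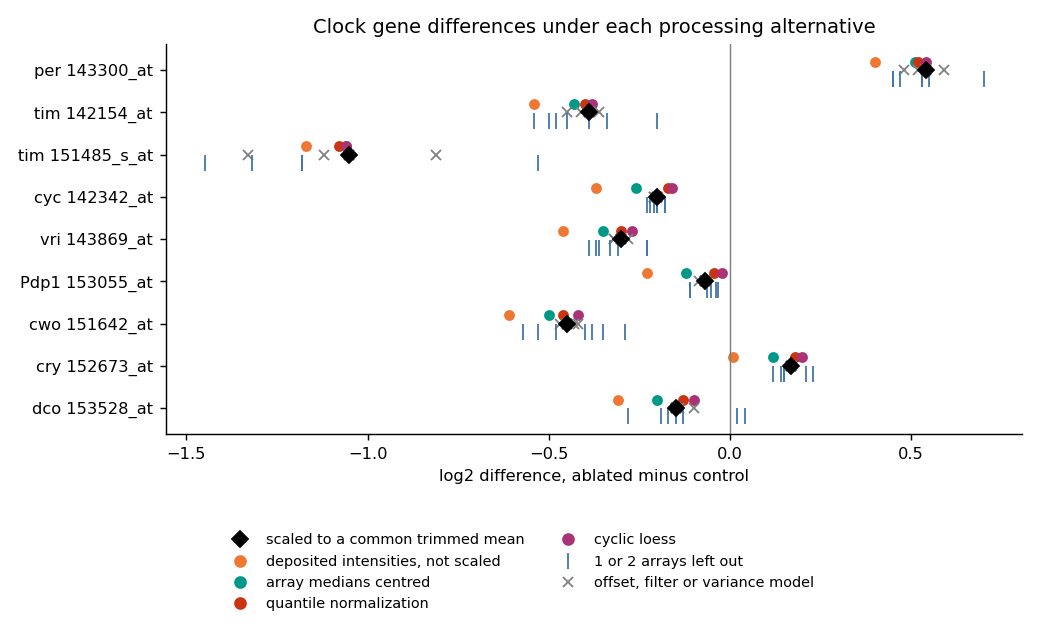
Log2 difference of the 9 tested clock gene probe sets under each processing alternative (horizontal axis), with black diamonds for arrays scaled to a common trimmed mean, coloured circles for other scalings, ticks for arrays left out and crosses for other offsets, filters and variance models. Of the 9, only dco crosses 0, reaching 0.042, and per stays between 0.40 and 0.70.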

How the data were processed

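Deposited values are linear intensities, 1 for each probe set on each array, made with MAS5 per the submitters' processing notes (settings not given in the sources used here). Of 14010 probe sets, 44 Affymetrix controls were left out. Of the other 13966, 12443 had a single gene, 327 several and 1196 none in the platform annotation, and 12394 symbols were updated by gene identifier. Arrays were scaled to a common mean (2% trimmed at each end). The offset of 2.7 is the 20th percentile and the level of 9.2 the 40th percentile of means. Ablated and control arrays were tested against each other in R 4.3.3 with limma 3.58.1 (intensity trend, two-sided, no covariates, Benjamini-Hochberg at 0.05 over all probe sets), a script tested on simulated data. At most 1.52% of values were equal on any pair of arrays, and none was counted as a copy. The labels do not say whether replicate arrays came from separate cultures, and p-values therefore reflect the spread among these arrays, which may be technical. Named are all members, per pathway list the genes called or at most 2 with the smallest p, and 3 genes most like tim and Clk where tested. Members and lists were chosen with earlier results of these data known. Alternatives covered scaling, offset, filter, variance model, probe set per gene and arrays left out.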

Additional observations from a re-analysis of the deposited data

How the results depend on the processing

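No paired analysis was possible because control arrays are numbered 1 to 3 and ablated arrays 4 to 6. Members were tested under up to 16 other settings and 1 chosen after seeing the data. In none was a member called by limma, whose adjusted p for members ranged from 0.554 to 0.997, and all members but dco kept their direction wherever tested. The value of dco was 0.020 without ablated 5 (from -0.28 to 0.020 with 1 array left out) and 0.042 without control 1 and ablated 5, and the cause was not tested. Member probe sets lower with no overlap numbered 4 to 6, where the share over all tested probe sets ran from 5.39% to 18%. They numbered 6 in the deposited intensities (14.8%), without ablated 6 (13.9%) and without control 1 and ablated 5 (18%). Member probe sets higher with no overlap numbered 2 after quantile normalization (4.36% of all), where cry joined per. With the filter at the 60th percentile, where per is too dim to be tested, they numbered 0 (4.31% of all). With 1 array left out they numbered 1 to 2, beside 8.04% to 10.6% of all. The contrast of phases was 0.12 with no filter, where Clk enters, -0.26 with the mean over a gene's probe sets, and -0.20 to 0.025 with 1 array left out. Over all probe sets the counts called higher ranged from 0 to 2 with 1 array left out, the 2 being scaf (146651_at) and the unnamed 152766_at without control 1. At an unadjusted p, deposited intensities gave 661 lower and 53 higher, median centring 333 lower, no filter 344 and 373, and the filter at the 60th percentile 119 higher. Lower counts were 109 without control 3 and 340 without ablated 6. The tim probe set 151485_s_at was too dim to be tested with the filter at the 60th percentile, without control 2 and without control 3. The number of arrays limits every value.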

Other observations

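Some clock pathway genes too dim to be tested are named here after their values were seen. The gene qsm (147554_at), which encodes an extracellular membrane-anchored protein of clock light input, read 2.65, 1.36 and 3.68 on control and 8.23, 10.6 and 4.44 on ablated arrays, with no overlap. Its control values lie around the offset of 2.7, and with no filter 5.48% of all probe sets were higher without overlap. Rh7 (148637_at), a rhodopsin of the brain, read 1.97, 7.31 and 1.84 on control and 11.2, 6.66 and 9.58 on ablated arrays, with overlap. Both had means below 9.2, so no test was made. The gene gl (152797_at), needed for a group of dorsal clock neurons, read at most 5.21 on any array.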
